A study of Mus musculus with 8 samples.

Results

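The vestigial-like cofactors Vgll2, Vgll3 and Vgll4, the DNA-binding factors Tead1, Tead2, Tead3 and Tead4, and the coactivators Yap1 and Wwtr1 make up 1 regulatory system, in which the cofactors compete for the TEAD proteins. These 9 genes were found by platform gene symbol and are read by 16 of the 45101 probe sets on the array. The set was chosen by the measured values of Vgll2, whose signal was seen almost only in RNA pulled down from hypocretin neurons, and those values are given as a description with no test. The other 8 genes were added by name, as relatives and partners of Vgll2.

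The arrays measured 2 fractions of the same tissue. The immunoprecipitate (IP, 4 samples) holds RNA bound to the tagged ribosomes of hypocretin neurons, and the unbound fraction (4 samples) stands for the RNA of the whole tissue. All samples, unbound ones included, came from BAC transgenic mice of the line Hcrt JD218 on a mixed Fvb and c57/bl6j background, adults of both sexes aged 6 to 12 weeks. Thalamus and hypothalamus were dissected together, 5 mice were pooled per sample, and 20 ng of RNA was amplified over a pair of cycles for 1 Affymetrix array. The cells that are tagged are those in which the transgene, named for Hcrt, is active, and no precipitate from mice without it was analysed here.

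Levels are log2 values on a scale where 18 biotinylated hybridisation controls average the same in both fractions. A linear value of 50, or 5.64 on that scale, was taken as the lowest measured level. It was reached by 33.6% to 34.8% of the probe sets in IP samples and by 40.5% to 40.9% of them in unbound samples. Hcrt, the gene of the arousal peptides, stood at 15.36 ± 0.17 in the IP and 10.33 ± 0.55 in unbound RNA (mean ± SD of 4 arrays). Preparation 4 stood apart in the choroid plexus gene Ttr, which read 10.19 in its IP and 5.42 in its unbound fraction. The other IP samples read 14.99 to 15.45 and the other unbound samples 15.47 to 15.87. In those samples Ttr makes up most of the summed linear level of ventricle lining and choroid plexus markers. That sum was 2913 in the IP and 867.3 in the unbound fraction of preparation 4. It was 35300 to 46930 in the other IP and 46340 to 62460 in the other unbound samples. Leaving out either array of preparation 4 changed no call of a family member. Across the 17865 probe sets tested, the median difference, IP minus unbound, was -0.87, so a probe set near that value moved like the typical one.

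TEAD proteins bind DNA but need a partner to act on transcription. YAP (Yap1) and TAZ (Wwtr1) are the coactivators that the Hippo kinases keep out of the nucleus, and in the adult brain they are best known from astrocytes, vascular cells and progenitors. The vestigial-like proteins bind the same face of TEAD: Vgll2 and Vgll3 are best known as TEAD cofactors of muscle, while Vgll4 displaces YAP and represses.

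The sequence that TEAD proteins recognise has CATTCC as its core. RefSeq promoter entries (GRCm38.p6) were found for 7 of the 9 genes. Tead1 and Tead4 were not matched. The 250 bases before an annotated start are shown, the first entry where a gene has several, for Vgll2, the gene that was high in the IP, and for the 4 genes with a probe set called lower there, with CATTCC or its reverse complement GGAATG in capitals. Each is written 5′ to 3′ on the strand of the gene.
Vgll2, chr10:52022252-52022501, plus strand: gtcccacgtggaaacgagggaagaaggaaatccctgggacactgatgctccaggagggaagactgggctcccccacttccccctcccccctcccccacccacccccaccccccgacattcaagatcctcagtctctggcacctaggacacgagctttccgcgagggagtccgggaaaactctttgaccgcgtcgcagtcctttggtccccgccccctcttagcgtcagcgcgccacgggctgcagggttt
Vgll3, chr16:65814939-65815188, plus strand: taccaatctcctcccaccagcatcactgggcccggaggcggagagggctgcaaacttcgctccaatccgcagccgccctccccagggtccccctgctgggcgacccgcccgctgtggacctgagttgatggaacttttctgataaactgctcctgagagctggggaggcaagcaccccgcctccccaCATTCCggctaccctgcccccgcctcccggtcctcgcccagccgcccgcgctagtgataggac
Vgll4, chr6:114969204-114969453, minus strand: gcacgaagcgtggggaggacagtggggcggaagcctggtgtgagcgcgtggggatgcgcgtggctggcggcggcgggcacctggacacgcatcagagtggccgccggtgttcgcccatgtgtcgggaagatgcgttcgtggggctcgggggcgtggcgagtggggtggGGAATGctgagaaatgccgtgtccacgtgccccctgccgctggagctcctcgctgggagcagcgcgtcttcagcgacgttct
Yap1, chr9:8004597-8004846, minus strand: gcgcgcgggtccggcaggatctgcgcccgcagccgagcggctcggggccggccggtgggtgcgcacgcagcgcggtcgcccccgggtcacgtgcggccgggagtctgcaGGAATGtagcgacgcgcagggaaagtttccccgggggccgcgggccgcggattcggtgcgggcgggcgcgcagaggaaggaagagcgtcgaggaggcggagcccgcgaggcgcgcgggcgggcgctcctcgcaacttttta
Wwtr1, chr3:57575911-57576160, minus strand: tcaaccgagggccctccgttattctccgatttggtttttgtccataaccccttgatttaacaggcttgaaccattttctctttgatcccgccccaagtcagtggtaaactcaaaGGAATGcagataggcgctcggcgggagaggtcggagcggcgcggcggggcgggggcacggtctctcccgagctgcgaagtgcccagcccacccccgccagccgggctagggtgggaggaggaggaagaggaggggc
Vgll2 has no such match in these 250 bases, and the other 4 genes have 1 each. The first base of the match lies 63 bases before the start in Vgll3, 82 in Vgll4, 141 in Yap1 and 136 in Wwtr1. A second Wwtr1 entry, chr3:57575877-57576126, overlaps the one shown and places the same match 170 bases before its start. Starts are those of the promoter entries: the Vgll4 window lies inside the annotated gene and the Yap1 window overlaps its end at the 5′ side, so these are not the outermost starts. Of all 32851 promoter windows of this length, 12.6% hold the motif on either strand. Their median content of G and C bases is 52.4%, whereas the windows shown hold 61.6% (Wwtr1) to 76.4% (Yap1). Shares over all windows thus come from windows of unlike composition. The window of Tead2 holds no match and 2 of the 3 windows of Tead3 hold at least 1. The AP-1 motif TGANTCA, of factors that often work beside TEAD, was searched on both strands in the same way. It is in none of the 10 member windows and in 6.75% of all windows. A match describes letters and does not show that a factor binds there.

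Vgll2 was bright in every IP sample and under the measured range in every unbound sample. Its single probe set read 10.55, 11.13, 10.93 and 11.44 in the IP, against 3.19, 3.13, 3.06 and 3.13 in the unbound fraction (log2 levels, replicates 1 to 4). The groups lie far apart, and the spread within each is small (11.01 ± 0.37 in the IP and 3.13 ± 0.05 in unbound RNA, SD, n = 4 in both). Since the unbound values are under the minimum, the fold is a bound, at least 41.0-fold higher in the IP. Of the tested probe sets, 155 (0.868%) had all 4 IP arrays at or above the minimum and all 4 unbound arrays under it. In these bulk fractions, fewer cells of a type, less RNA per cell and less RNA on ribosomes cannot be told apart. Vgll2 is a short gene of 5.97 kb (chr10:52022502-52028471, GRCm38.p6).

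**Figure D1:**
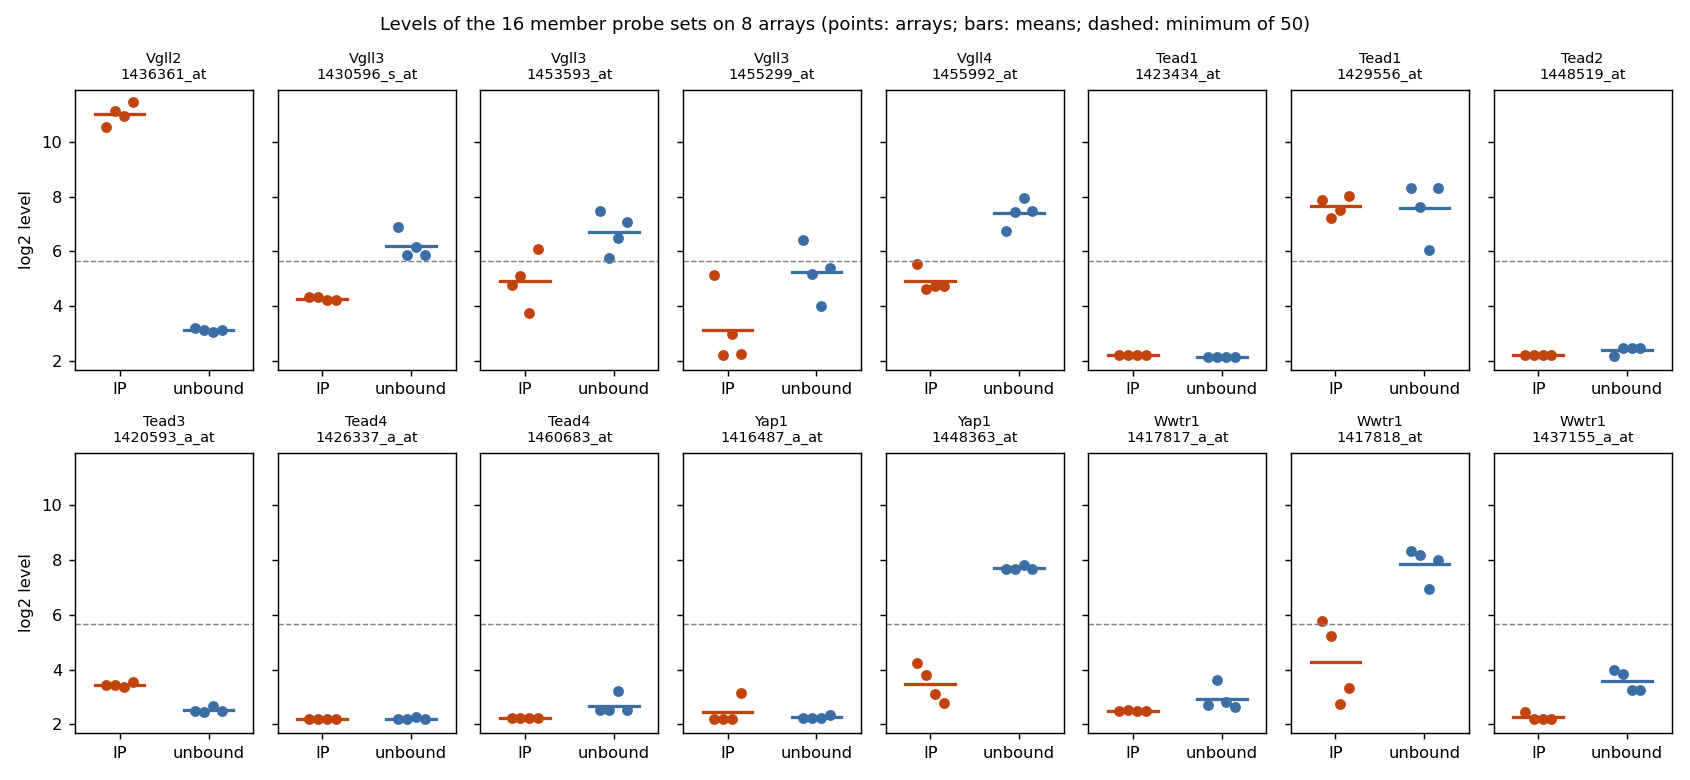
Log2 level of each of the 16 member probe sets on the 8 arrays, with IP at the left and unbound at the right of every panel. Points are arrays, bars are means of 4 and the dashed line is the minimum of 50; Vgll2 lies above the line in the IP and below it in the unbound fraction, while Yap1, Wwtr1, Vgll3 and Vgll4 each have a probe set placed the other way round for most arrays.

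Of the 4 TEAD factors, Tead1 was the one measured, and it was present in both fractions. Its brighter probe set read 7.86, 7.22, 7.52 and 8.01 in the IP, against 8.32, 7.62, 6.06 and 8.32 in the unbound fraction (log2 levels). The groups overlap, with the lowest of the 8 values in unbound replicate 3. The difference, IP minus unbound, was 0.07 ± 0.48 on the log2 scale (SE) and did not pass the test (limma adjusted p = 0.90). Without unbound replicate 3 it was -0.58 (limma adjusted p = 0.12). Set against the median of all tested probe sets, Tead1 stood 0.95 above it, and 78.9% of tested probe sets had a lower difference. Centring each array on the median of its tested probe sets gave 1.0 (limma adjusted p = 0.096), and the poly-A spike-in controls gave -1.89 (limma adjusted p = 0.0030), so the direction depends on the scale.

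The other Tead1 probe set and the probe sets of Tead2, Tead3 and Tead4 were under the minimum on all 8 arrays. The second Tead1 probe set averaged 2.2 in the IP and 2.15 in the unbound fraction, next to the lowest values on these arrays (2.21 and 2.14 as deposited). Tead2 averaged 2.2 in the IP and 2.41 in the unbound fraction. The 2 Tead4 probe sets averaged 2.2 and 2.22 in the IP, against 2.21 and 2.69 in the unbound fraction. Tead3, which in mammals is best known from placenta, read 3.42, 3.42, 3.35 and 3.53 in the IP, against 2.48, 2.46, 2.65 and 2.48 in the unbound fraction. The Tead3 groups do not overlap, but both lie so far under the minimum that no fold is given. These values say that the 3 genes were not detectable with these probe sets, not that they were absent.

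The coactivators were low in the IP. The brighter Yap1 probe set read 4.23, 3.80, 3.12 and 2.77 in the IP, against 7.66, 7.66, 7.83 and 7.66 in the unbound fraction. All 4 IP arrays were under the minimum and all 4 unbound arrays above it, so that the fold is a bound, at least 4.20-fold lower in the IP (fitted log2 difference -4.22 ± 0.32 SE, limma adjusted p = 5.4e-06). The brightest Wwtr1 probe set read 5.77, 5.24, 2.75 and 3.32 in the IP, against 8.33, 8.18, 6.94 and 8.0 in the unbound fraction. Its groups do not overlap, 1 IP array reached the minimum, and the gene was at least 4.59-fold lower (fitted log2 fold change -3.59 ± 0.65 SE, adjusted p = 0.00080 in limma). The Yap1 probe set passed the filter through the unbound arrays alone and so had to differ. Its fitted size rests on IP values under the minimum. The second Yap1 probe set and 2 further Wwtr1 probe sets were under the minimum on all arrays and add no fold.

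The vestigial-like relatives of Vgll2 did not share its pattern. Vgll4, with 1 probe set, read 5.53, 4.62, 4.75 and 4.73 in the IP, against 6.76, 7.43, 7.93 and 7.48 in the unbound fraction. Every IP array was under the minimum and below every unbound array, which makes Vgll4 at least 3.41-fold lower (fitted log2 difference -2.49 ± 0.32 SE, limma adjusted p = 0.00010). Like Yap1, it passed the filter through the unbound arrays alone, as did the first Vgll3 probe set. Vgll3 has 3 probe sets, and its unbound levels were near the minimum. The first read 4.34, 4.32, 4.21 and 4.22 in the IP, against 6.89, 5.88, 6.15 and 5.85 in the unbound fraction, at least 1.48-fold lower (fitted log2 difference -1.92 ± 0.26 SE, limma adjusted p = 0.00016). The second read 4.77, 5.10, 3.74 and 6.07 in the IP, against 7.48, 5.75, 6.50 and 7.08 in the unbound fraction. Its groups overlap, and it was at least 1.94-fold lower (fitted log2 difference -1.78 ± 0.51 SE, limma adjusted p = 0.011, and 0.063 without unbound replicate 1). The third reached the minimum on 1 unbound array and was not tested. It averaged 3.14 ± 1.37 in the IP and 5.25 ± 0.99 in unbound RNA (mean ± SD, 4 arrays per fraction).

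Counted together, 7 of the 16 member probe sets, from 6 of the 9 genes, passed the filter of 50 on at least 4 arrays. Of the others, 8 never reached 50 and 1 did so on a single array. Vgll2 aside, 0 of the 6 tested member probe sets were called higher and 5 were called lower, at a limma adjusted p under 0.05 and at least 2-fold. Over all tested probe sets 4.88% were called higher and 45.1% lower. In 4 of the 6 every IP value lay below every unbound value and in 0 above, where 50.1% of all tested probe sets had non-overlapping groups with the IP lower and 6.85% with the IP higher. These 5 probe sets passed the filter through the unbound arrays, 3 of them through those alone, so their direction was in part set by the filter and their count is not evidence about the family.

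Within each preparation the differences can be set side by side, as a description where 1 fraction is under the minimum. For Vgll2, chosen on these values, the IP minus unbound difference was 7.36, 8.0, 7.87 and 8.32 in replicates 1 to 4. For Yap1 it was -3.43, -3.86, -4.71 and -4.89, and for Wwtr1 -2.57, -2.93, -4.19 and -4.68. For Tead1 it was -0.46, -0.40, 1.46 and -0.31, negative in 3 of 4 preparations. The positive mean of Tead1 thus rests on replicate 3. Vgll4 and both tested Vgll3 probe sets were lower in the IP of 4 of 4 preparations.

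**Figure D2:**
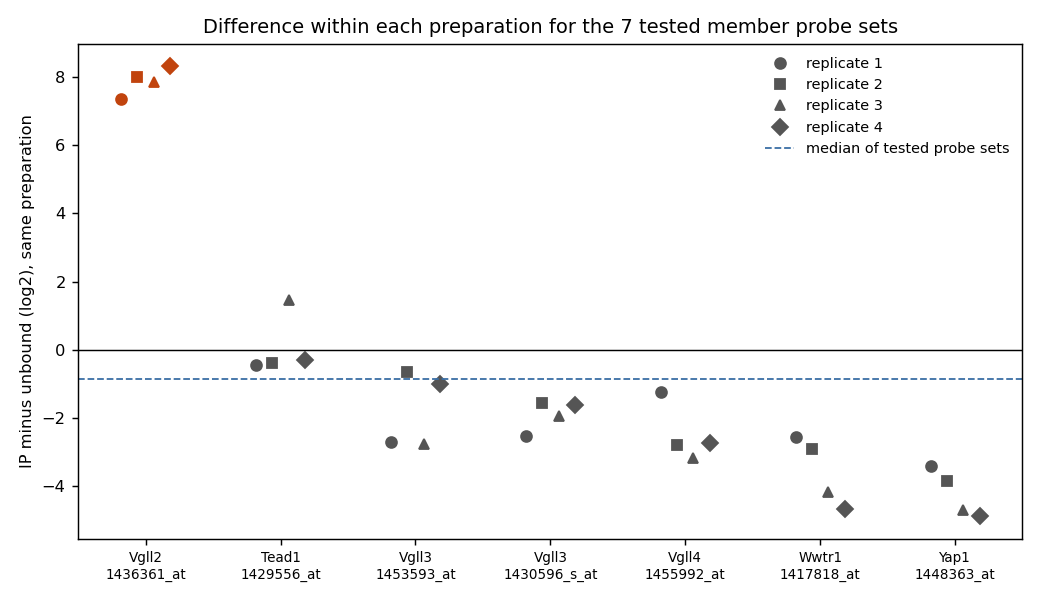
Log2 difference, IP minus unbound, within each of the 4 preparations for the 7 tested member probe sets, with 1 symbol per replicate and the median of all tested probe sets (-0.87) as a dashed line. Vgll2 lies between 7.36 and 8.32, Tead1 lies on both sides of 0, and the probe sets of Vgll3, Vgll4, Wwtr1 and Yap1 lie below 0 in all preparations.

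The scale between fractions matters for the members nearest the typical gene. Yap1, Wwtr1 and Vgll4 were called lower on each of the 5 scales tried, with fitted differences of -3.06, -2.43 and -1.19 after quantile normalization, where they were smallest in size. After centring each array on the median of its tested probe sets, these 3 were the members called lower and 0 were called higher, where 21.2% of all tested probe sets were lower and 20.5% higher. Yap1, Vgll4 and the first Vgll3 probe set entered the fit on each scale through the unbound arrays alone. Their direction was thus in part set by the filter, and their sizes rest on IP values under the minimum. Both tested Vgll3 probe sets lost their call after quantile normalization, at -0.48 (limma adjusted p = 0.18) and -0.45 (limma adjusted p = 0.49). For Vgll2, chosen for its difference, the value ran from 5.92 on the poly-A controls to 8.81 after centring on the tested probe sets, each against unbound levels under the minimum.

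**Figure D3:**
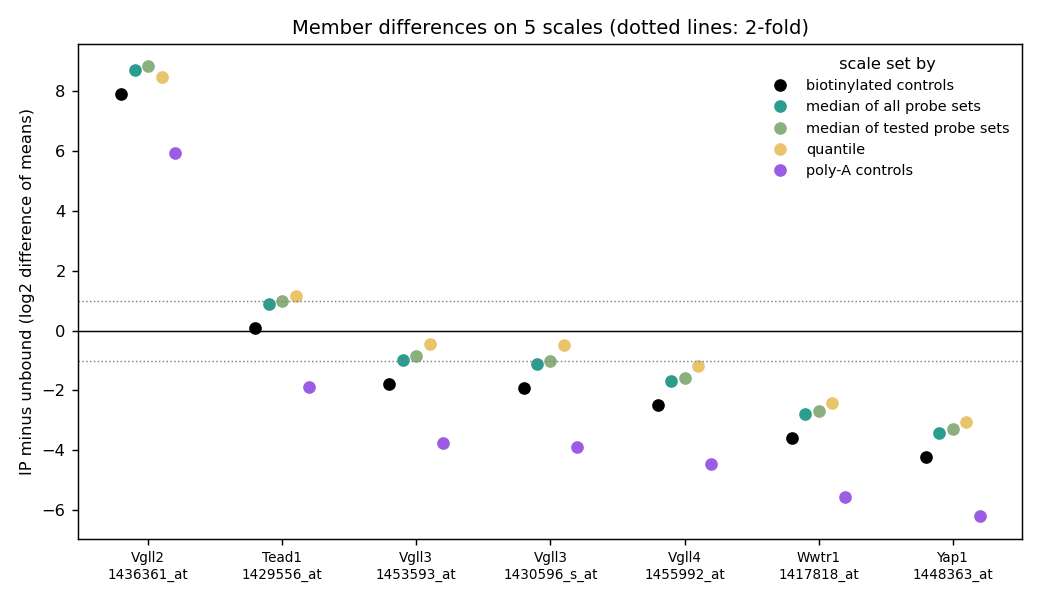
Log2 difference of means, IP minus unbound, of the 7 tested member probe sets on 5 scales, with dotted lines at 2-fold in either direction. The order of the members along the axis is the same on the scales set by controls and medians, and Tead1 is the member whose sign differs between scales.

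Gene length went with the differences over all genes, and the members do not share a length. The 10363 tested genes with an annotated length were divided into 5 groups of near equal size. The median difference was -0.13 among the shortest (up to 8.54 kb), where Vgll2 lies, and -1.54 among the longest (from 81.0 kb), where Tead1, Vgll4 and Wwtr1 lie. Tead1 (chr7:112679356-112906784), at 227 kb the longest member, stood higher than 90.4% of the longest genes. That rank uses its difference of 0.07, which was -0.58 without unbound replicate 3. Vgll4 spans 109 kb (chr6:114860621-114970007) and Wwtr1 120 kb (chr3:57455644-57575910). Yap1 (72.6 kb, chr9:7931999-8004638) and Vgll3 (51.2 kb, chr16:65815189-65866368) fall among genes of 35.7 to 81.0 kb, with a median of -1.15. These 4 genes are not ranked among their groups, since most of their IP values were under the minimum.

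Markers of other cells were lower in the IP beside Yap1 and Wwtr1. Of all tested genes 44.2% were called lower, and beside that share all 16 astrocyte markers were (median log2 fold change -2.34), among them the intermediate filament gene Gfap, at least 13.1-fold, and the glial transcription factor Sox9, at least 5.51-fold. Their summed linear level was 26830, 25300, 19280 and 11110 in IP replicates 1 to 4, against 66910 to 73680 in the unbound fraction. Wwtr1 and Yap1 read higher in IP replicates 1 and 2 than in 3 and 4. Of these values only that of Wwtr1 in IP replicate 1 reached the minimum, so their order is a description. Of 14 endothelial and mural markers 9 were under the minimum on all arrays, including Pecam1, Cdh5, Flt1, Kdr and Tek, and the 4 tested were called lower, among them the receptor Pdgfrb, at least 4.52-fold, and Rgs5 of pericytes, 4.48-fold. Their summed level was 755.1, 726.5, 374.4 and 262.2 in IP replicates 1 to 4 and 1222 to 2003 in the unbound fraction. Sox9 and the endothelial marker Cldn5 passed the filter through the unbound arrays alone and so had to differ. The falling order over IP replicates 1 to 4 is not particular to these 2 lists. Oligodendrocyte markers summed to 49160, 47610, 42950 and 21880 there, and precursor markers to 6140, 4529, 3565 and 2692. Microglial markers summed to 1231, 1011, 731.5 and 270.7, while meningeal fibroblast markers gave 400.9, 476.5, 456.0 and 167.1. The part of any of these cell types in the Yap1 and Wwtr1 differences was not tested.

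Further marker lists did not all go the same way. Of 9 hypocretin neuron markers 7 were called higher and 0 lower, beside 4.74% higher of all tested genes. The 2 not called were Slc17a6, at -0.69, and Vgf, at 0.9. All 12 measured oligodendrocyte markers, all 6 tested precursor markers, all 7 tested microglial markers and all 3 tested markers of meningeal fibroblasts were called lower, again beside 44.2% of all tested genes. Of these, Gjb1, Vcan, Cx3cr1, C1qa, C1qc and Tmem119 passed the filter through the unbound arrays alone and so had to differ. Ermn of myelin-forming cells fell 9.51-fold, Pdgfra was at least 12.0-fold lower and Tmem119 of microglia at least 2.01-fold lower. Pdgfra is counted in both the precursor and the fibroblast list. Of 4 tested ependymal, tanycyte and choroid plexus markers 2 were called lower, among them Ccdc153, at least 6.22-fold, and 1 was called higher. The latter was Vim, which rose 2.55-fold (limma adjusted p = 0.012), and Ttr was not called. For skeletal muscle, the tissue in which Vgll2 is best known, 8 of 9 markers were under the minimum on all arrays, among them Ckm, Des, Mylpf and the 3 myosin genes Myh1, Myh2 and Myh4. The other, the actin gene Acta1, rose 4.86-fold, by 2.28 ± 0.38 (SE) on the log2 scale with an adjusted p of 0.00052 from limma, but it gave 0.32 on the poly-A controls. The myogenic factors Myod1, Myf5, Myf6 and Myog were also under the minimum on all arrays.

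The upstream Hippo pathway, the kinases and scaffolds that hold YAP and TAZ in check, was lower in part. Of 35 genes matched on the array, 30 were tested, and 18 were called lower, 0 higher and 12 neither, where 44.2% of all tested genes were called lower and 4.74% higher. The median of the list was -1.23, against -0.85 for all genes. The largest changes were in Lats2, a kinase that phosphorylates YAP, at least 10.6-fold lower, in Amot, a junctional protein that binds YAP, at least 7.03-fold lower, and in Mob1b, the LATS coactivator, at least 8.89-fold lower. Lats2 read 7.63, 7.31, 5.89 and 4.81 in the IP, against 10.28, 10.15, 10.02 and 9.62 in the unbound fraction, with no overlap. The scaffold Limd1 was at least 5.29-fold lower, and the kinase Map4k4 and the scaffold Wwc1 fell 5.39- and 5.15-fold. Ywhaz, the adaptor that retains phosphorylated YAP, was the brightest uncalled gene of the list at -0.99 (limma adjusted p = 0.00010, under 2-fold), and 3 of its 7 tested probe sets were called lower.

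Genes known as targets of YAP, TAZ and TEAD in other tissues were mostly called lower or unmeasured. Of 25 genes, 8 were under the minimum on all arrays, among them the classical targets Ankrd1 and Ccn1. Of 15 tested, 11 were called lower, 1 higher and 3 neither, beside 44.2% lower and 4.74% higher of all tested genes. The list median was -1.57 (-1.41 with values under the minimum raised to it). With 1 of 15 called higher, that share is near the one of all tested genes, so this count is no result about the targets. Igfbp3, which binds insulin-like growth factors, read 10.41, 10.10, 10.41 and 10.48 in the IP, against 7.67, 6.64, 6.34 and 7.99 in the unbound fraction, without overlap. It rose 9.13-fold, by 3.19 ± 0.37 (SE) on the log2 scale with an adjusted p of 6.2e-05 from limma, and its 2 tested probe sets were both called higher. Dock5, an exchange factor, and the cyclin gene Ccnd1 were at least 3.66- and 4.27-fold lower, the growth factor gene Tgfb2 at least 5.20-fold and the matrix gene Ccdc80 at least 1.92-fold. Dock5, Ccnd1 and Ccdc80 passed the filter through the unbound arrays alone and so had to differ. Lats2 belongs to this list too, and Fjx1, the brightest uncalled member, gave -0.13 (limma adjusted p = 0.76). After centring on the tested probe sets 5 were lower and 1 higher, beside 21.2% and 20.5% of all tested probe sets.

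**Figure D4:**
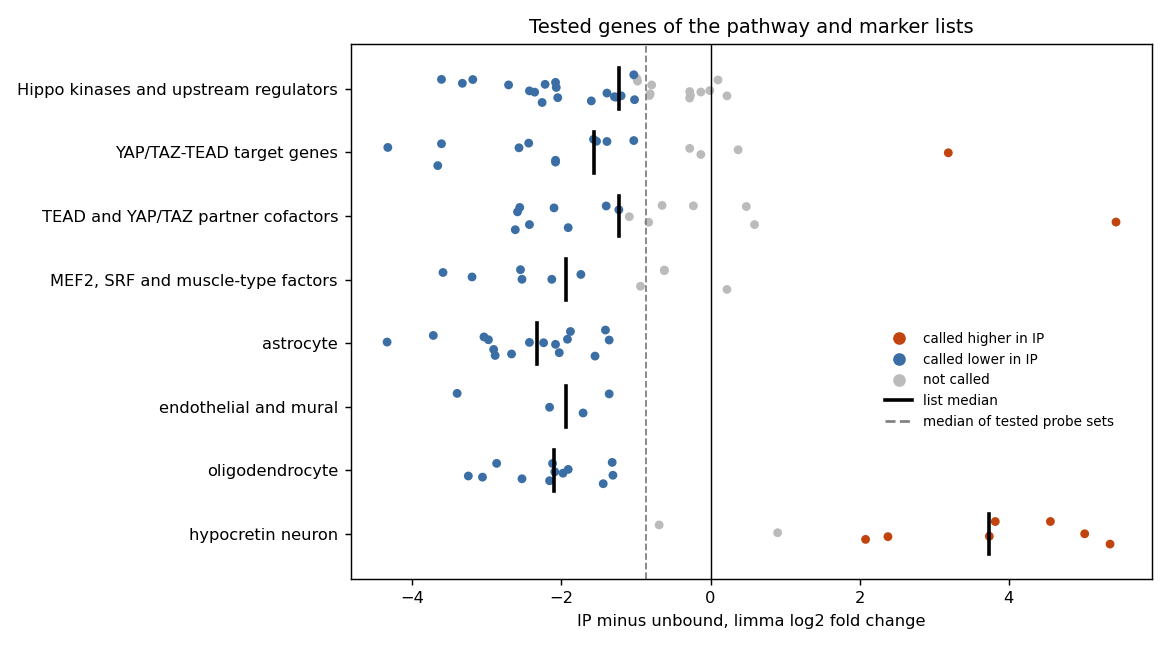
Limma log2 fold change, IP minus unbound, of each tested gene in 4 pathway lists and 4 cell marker lists, 1 point per gene, with list medians as black bars and the median of all tested probe sets (-0.87) dashed. Igfbp3 among the target genes and Fosl1 among the cofactors stand at the right, at 3.19 and 5.44. Most hypocretin neuron markers stand there too (median 3.74), with Slc17a6 at -0.69. All tested astrocyte, oligodendrocyte and endothelial and mural markers lie at the left.

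Cofactors and partner factors of TEAD and YAP were mostly measured in both fractions. Of 20 matched genes 15 were tested, of which 8 were called lower, 1 higher and 6 neither (median -1.23). These shares are near those of all tested genes (44.2% lower and 4.74% higher), so the counts are no result about the cofactors. The gene called higher was Fosl1, an AP-1 factor, which read 7.21, 7.34, 7.94 and 7.90 in the IP and 2.15 in each unbound sample. Its fold is a bound, at least 3.84-fold higher (limma adjusted p = 3.6e-07). It passed the filter through the IP arrays alone and so had to differ. The acetyltransferase genes Ep300 and Crebbp fell 6.14- and 6.03-fold, and the steroid receptor coactivators Ncoa2 and Ncoa1 fell 5.38- and 4.30-fold. Ncoa3 fell 5.88-fold by its brighter probe set, while another was called higher (1.29 on the log2 scale). The corepressor gene Ctbp1 was the brightest uncalled member, with levels of 12.98 ± 0.16 in the IP and 13.20 ± 0.15 in unbound RNA (mean ± SD, 4 arrays per fraction). Vgll1, the remaining vestigial-like gene, was under the minimum on all arrays.

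Of the MEF2 factors, which work with Vgll2 and TEAD in muscle, Mef2a and Mef2c were called lower, Mef2d was not called and Mef2b was under the minimum on all arrays. Of 17 matched genes of this muscle-type list 10 were tested, with 6 called lower, 0 higher and 4 neither, beside 44.2% lower and 4.74% higher of all tested genes (median -1.93, or -1.49 with values under the minimum raised to it). Mef2c and Mef2a fell 9.20- and 5.85-fold, and the 4 tested probe sets of each were called lower. Mrtfb, a coactivator of serum response factor, fell 5.76-fold, its relative Mrtfa was at least 3.74-fold lower, and the phosphatase gene Eya3 fell 3.33-fold. Max, a partner of MYC that also binds TEAD, was at least 2.35-fold lower, and it passed the filter through the unbound arrays alone. Mef2d, the brightest uncalled member, gave -0.94 (limma adjusted p = 0.0023, under 2-fold), and another Mef2d probe set gave 0.50.

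The genes whose 8 values lay nearest to those of Vgll2 were Avpr1a, Casp1, Hspb3, Tmem114 and Cd40, by Euclidean distance over the 8 arrays and 1 probe set per gene. The distance was 2.66 for Avpr1a, a vasopressin receptor, and from 4.13 to 4.81 for the other 4, next to 4.99 for the gene that followed, Pi16. Avpr1a read 9.30, 9.65, 10.03 and 10.40 in the IP, against 2.98, 3.56, 3.56 and 4.11 in the unbound fraction. That all 5 were above the minimum in the IP and under it in the unbound fraction follows from the choice. Distance also depends on how brightly a probe set reads, and the comparison describes these arrays.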

How the data were processed

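RNA of 4 IP and 4 unbound samples was hybridised to 8 Affymetrix mouse arrays, 1 per sample. The values deposited by the authors, 1 for each probe set on each array, were taken as log2 from their range. GCRMA, a background correction and normalization, is named in the submitters' processing notes (version not given in the sources used here), and normalization was done within each group, per the series' design text. The fractions were therefore aligned on the 18 biotinylated controls by a constant for each group; as deposited, the control means differed by 0.02. The number of arrays limits the precision.

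The 64 control probe sets were left out. Probe sets at or above a linear 50 on at least 4 arrays (3 when an array was left out) were fitted in R 4.3.3 by lmFit and eBayes (trend, no block) of limma 3.58.1, adjusted by Benjamini-Hochberg over all 17865, and called at an adjusted p under 0.05 and at least 2-fold. The fit was tested on simulated data. For folds, values under 50 were raised to 50, and such a fold is written as at least. Each gene of a list was read by its tested probe set with the highest mean. Of all probe sets 34958 had 1 gene symbol in the platform annotation and 932 had several; 9211 had none here. List names were matched through RefSeq gene IDs, and list genes without a match are not reported here.

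The members and lists were chosen with earlier results of these data known. Named were all members, up to 6 called genes with the largest change and the brightest uncalled gene of each pathway list, up to 2 called genes of each marker list, and the 5 genes nearest to Vgll2. Other genes, such as unmeasured markers, were chosen after their values were seen.

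IP and unbound arrays with the same number in the labels come from 1 preparation. Deviations of same-numbered arrays from their group means correlated at 0.44, 0.33, 0.25 and 0.59 over tested probe sets. IP replicate 2 with unbound replicate 3 gave 0.26, and IP replicate 3 with unbound replicate 2 gave 0.24. These values therefore do not tell preparations 2 and 3 apart. Figures used matplotlib 3.10.9 (Python 3.11.15).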

Additional observations from a re-analysis of the deposited data

Results flagged for a closer look

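Among 92 groups of 4 arrays examined for members and named genes, 6 had 1 array far from the other 3, where chance gives about 1 in 20. Yap1 read 7.83 in unbound replicate 3 and 7.66 in each of the others, a gap that is large only against their near identity. Amot read 6.00 in IP replicate 1, against 4.92 to 5.00 in the others, and Ep300 read 7.72 there, against 6.39 to 6.42. Casp1 read 9.80 in IP replicate 4, against 8.98 to 9.03. In unbound replicate 1, Dock5 read 7.78, against 7.39 to 7.43, and Ccnd1 read 7.48, against 7.81 in the others.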

How the results depend on the processing

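Counts of calls moved with the scale between fractions. After centring on all probe sets, centring on tested probe sets (added after seeing the data), quantile normalization and the poly-A shift, the probe sets called higher were 3150, 3666, 3091 and 125, and those lower 4228, 3789, 3715 and 16823, against 872 and 8059; 1402 were higher with no filter. The median of tested probe sets became -0.06, 0.05, -0.04 and -2.84. Members other than Vgll2 called lower were 3 after quantile normalization, centring on tested probe sets or a minimum of 100, against 5. In the first 3 of the scales above, Hippo regulators called lower were 11, 11 and 10, target genes 6, 5 and 5, and partner cofactors called higher 3, 3 and 2. Partner cofactors called lower were 5 after centring on tested probe sets and after quantile normalization. Of genes called higher there were 1 Hippo regulator after centring on tested probe sets, 1 after quantile normalization, and 1 muscle-type factor after quantile normalization. The poly-A shift gave 30 Hippo regulators, 10 muscle-type factors and 14 partner cofactors called lower. The Vgll2 difference was 8.70, 8.81, 8.45 and 5.92 on these 4 scales, and 5.36 with values under 50 raised to 50. Leaving out 1 array gave 7.72 to 8.09 for Vgll2, 4 to 5 members lower, 14 to 21 Hippo regulators lower and 9 to 11 target genes lower. Tead1 turned to -1.89 on the poly-A controls and ran from -0.58 to 0.50 without 1 array. Fjx1 turned to 0.68, 0.79 and 0.76 after both centrings and quantile normalization and ran from -0.45 to 0.13 without 1 array, and Ctbp1 turned to 0.58, 0.70 and 0.04. The cause was not tested. With the replicate block 5 members were lower and 0 higher, and Tead1 gave 0.07 (limma adjusted p = 0.86); no call of a named member changed. Levels under 50 limit every statement on Tead2, Tead3 and Tead4.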
